A study of Cicer arietinum with 8 samples.

Results

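The probes described here were the 71 whose signal was raised in chickpea shoots 48 h after salt was added. They were chosen by measured ratios of salt-treated to control shoots at 48 h, among the 559 probes with codes starting in U (442 probes) or CA (117 probes), on an array of 756 probes in all. The ratio used for the choice was log2 of stressed over control signal, each less its local background, over unflagged spots that were positive in both channels, averaged per probe and array and centred on the array median of the U and CA probes. A member needed a ratio on 2 or more of the 3 arrays of salt shoots at 48 h, above 0 on each of them, with a mean of at least 0.585. Of the 370 U and CA probes with ratios on 2 or more arrays, 71 met the rule (19.2%). The same rule with its signs turned picked 62 lowered probes. The members are named only by code, the files tie no code to a species or a gene, and none of the 71 codes was found in the RefSeq gene table. No probe sequence was in the files used here, so none is printed, and the labelled tissues could not be checked against marker genes.

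All plants were of the chickpea (Cicer arietinum) genotype ICC 3996. Salt-treated seedlings stood in hydroponic medium changed on day 18 to one with 150 mM NaCl, and their controls got the medium alone. Shoots (stem and leaf) and roots were collected after 24 h and 48 h. Droughted plants were taken when their pots had dried to 30% water content and their controls were held at 80%, with leaves and flowers with early pods collected from plants 2 weeks past the onset of flowering. Cold-treated plants of the same age were collected after a week of nights at 5 °C, their controls having stayed in the glasshouse. RNA came from pooled tissue of 5 plants per group, as most labels give it, and each of the 8 conditions had 3 arrays on which stressed and control RNA, labelled with different dyes, were hybridised together. Stressed RNA carried Cy5 on arrays 1 and 2 and Cy3 on array 3. The labels call the 3 replicates biological, but nothing says how the pools behind the arrays differed, so p-values measure the spread between arrays. The limma fit estimated this spread per probe over the arrays of all 6 conditions tested together. An SE or p-value in 1 condition can thus reflect a spread seen mostly in the others.

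Salt harms plants first by making water harder to take up and later by the build-up of sodium and chloride in the leaves. Plants answer with abscisic acid signalling, ion pumps and transporters, small solutes that hold water, and enzymes that remove reactive oxygen. Drought and cold also restrict the water available to cells, and part of the response is known from other plants to be shared by the 3 stresses. Roots meet the salt first and shoots receive it through the xylem. Where tissue pools are compared, a change in the amount of a transcript per cell and a change in the share of the cells that make it cannot be told apart.

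A probe was taken as above background where at least 50% of its spots exceeded the local background by 2 of its SDs, which held for 162 to 581 probes in a channel. The dimmest channel was the control of salt roots at 48 h, array 1. For salt roots at 24 h the 3 arrays repeat a single scan, with 99.7% to 100% of spots sharing their pixel SD against 0% between arrays of every other condition. That condition is therefore given as 1 scan of unknown dye orientation, without a test. Images of the drought and cold arrays were measured on days 1 and 2, and those of the salt arrays on the later days 3 to 5, so the day and salt against the other stresses cannot be told apart.

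In salt shoots at 48 h the ratios that made the choice averaged between 0.593 and 3.63 per member, with a median of 0.996. They are a description, since they define the list. A mean of at least 1, a doubling, was reached by 35 members, one of at least 2 by 8 and one of at least 3 by 4. The list held 52 U probes, 18.8% of the 276 with ratios on 2 or more arrays, and 19 CA probes, 20.2% of 94. Ratios came from all 3 arrays for 56 members and from 2 arrays for 15. Just inside the threshold lay U407 (0.593), U184 (0.595) and CA0702 (0.597), and just outside it lay U139 (0.583), U372 (0.574) and U502 (0.573), so the list has no natural edge there. A further 6 probes had a mean over the threshold with an array at or below 0, 12 passed it on the 1 array where they had a ratio, and 156 had no ratio at all.

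All values below are on a second scale, log2 of stressed over control after normexp background correction and loess normalisation. On it the members averaged 0.29 to 3.56 in salt shoots at 48 h, with a median of 0.87. There, 67 of 71 were above 0 on every array (35.1% of all U and CA probes), a count that the choice fixes, since it used the same arrays. The exceptions were CA0761, U318, U411 and U038, each with an array just below 0. The SD of a member between these arrays had a median of 0.40. On the scale of the rule, the SD between the spots of a member on an array had a median of 0.12. The 6 spots of every U and CA probe sat in 6 different subgrids of the slide, and each of the 24 subgrids held between 6 and 27 members.

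**Figure D1:**
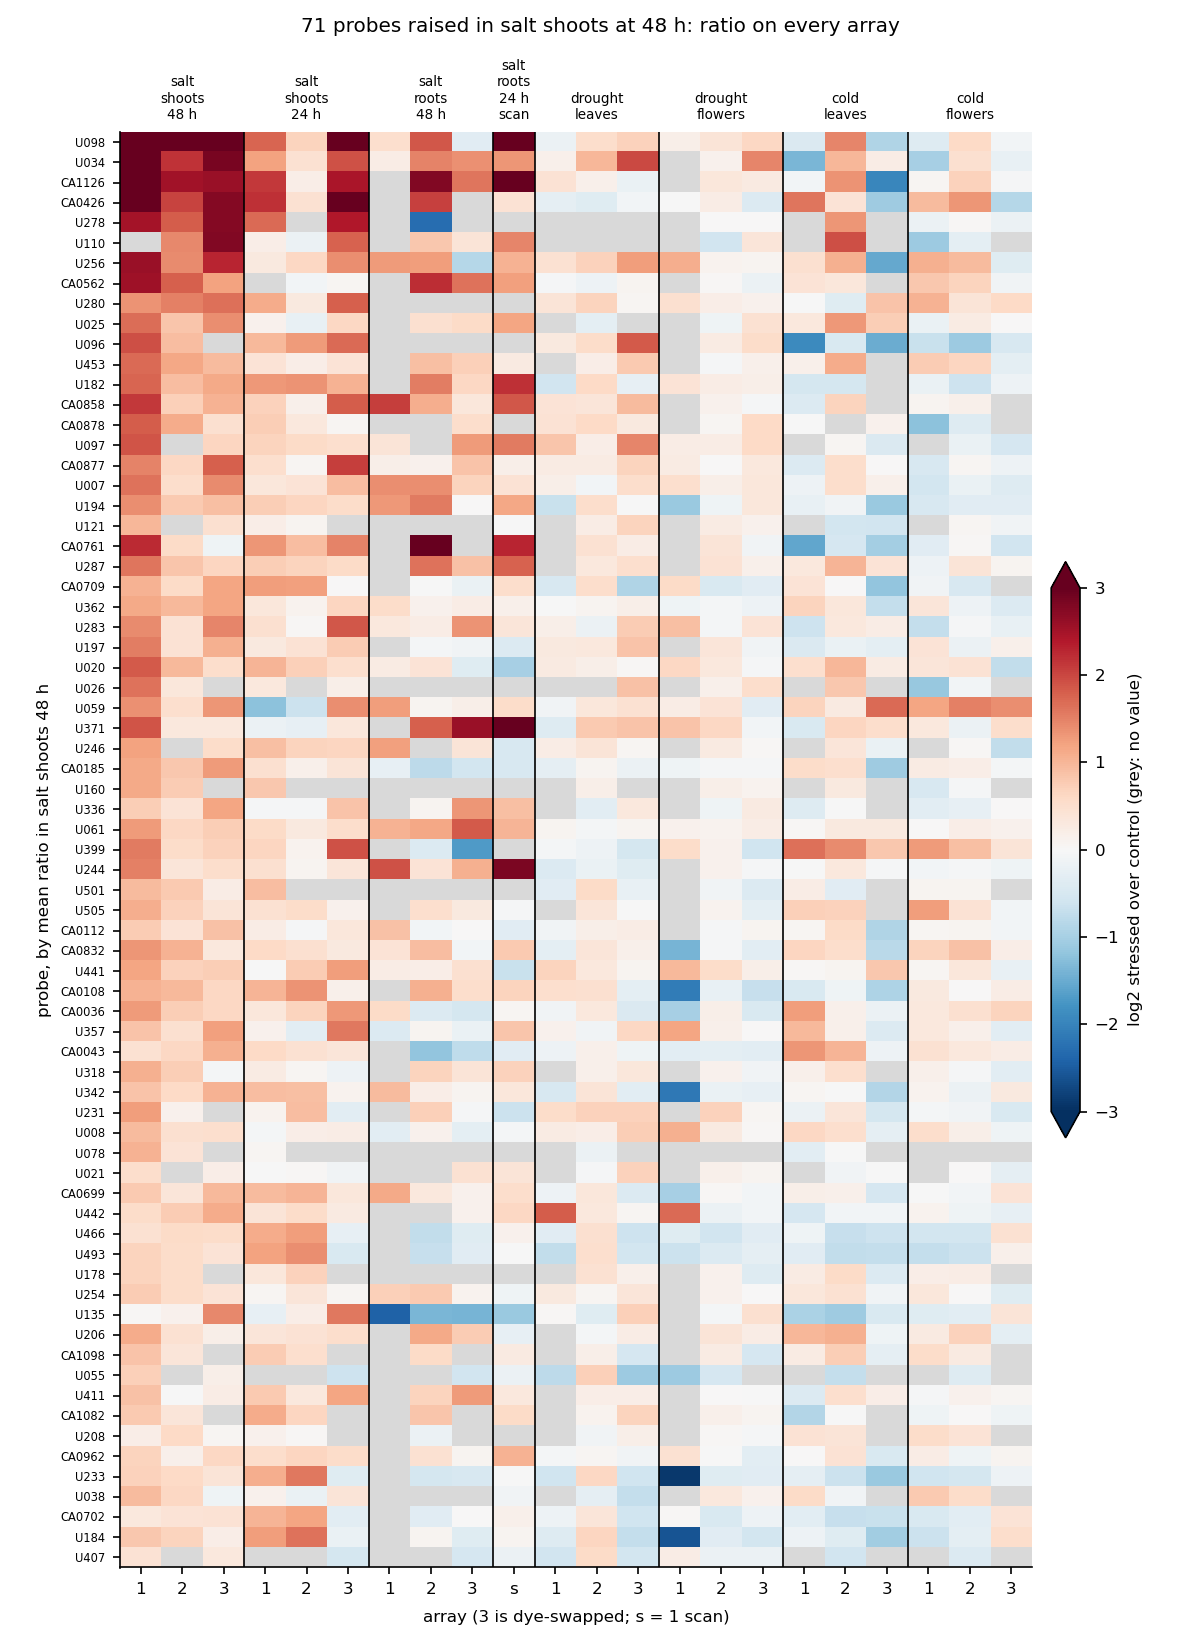
Log2 stressed over control of each of the 71 members (one per line, from the highest to the lowest mean ratio in salt shoots at 48 h) on every array of the 8 conditions, with salt roots at 24 h as 1 scan and missing values in grey. The salt shoots columns are mostly red, the salt roots columns hold red and blue, and the drought and cold columns are pale.

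The 10 members with the highest ratio were U098, U034, CA1126, CA0426, U278, U110, U256, CA0562, U280 and U025. U098 had signals of 50988, 46658 and 45094 in stressed shoots, against 4097, 4933 and 3000.2 in control shoots (scanner units less background, before normalisation). Its normalised log2 ratios were 3.36, 3.03 and 4.30, a mean of 3.56 ± 0.66 (SD, n = 3). U098 was thus about an order of magnitude brighter with salt on every array.

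U034 had log2 ratios of 4.13, 2.16 and 2.86 in salt shoots at 48 h, with stressed signals of 25028, 6054 and 5423 against control signals of 790.0, 914 and 736. CA1126 had 3.92, 2.51 and 2.59, and CA0426 had 3.91, 2.02 and 2.74. In each of these 3 probes array 1 gave the highest ratio, and no array fell below 2. Among the next, U278 ran from 1.83 to 2.75, U256 from 1.41 to 2.58 and CA0562 from 1.21 to 2.54, while U110 had values on arrays 2 and 3 only (1.45 and 2.79). U280 was the most even of the 10, at 1.34, 1.51 and 1.66. U025 had 1.66, 0.82 and 1.40.

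A day earlier, in salt shoots at 24 h, the list was already raised, at a smaller size. The question was whether the probes raised at 48 h also differed at 24 h, on arrays that played no part in the choice. The median member was at 0.55, 0.45 and 0.52 on the 3 arrays, against -0.09, -0.02 and -0.15 for the other U and CA probes. Of 66 members with values on 2 or more arrays, 46 (69.7%) were above 0 on every array, against 23.4% of all such U and CA probes, and 62 had a mean above 0. The later time was higher for 55 of 66 members and the earlier for 11, with a median difference of 0.39 (48 h minus 24 h), which was not tested because the 48 h values chose the members.

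**Figure D2:**
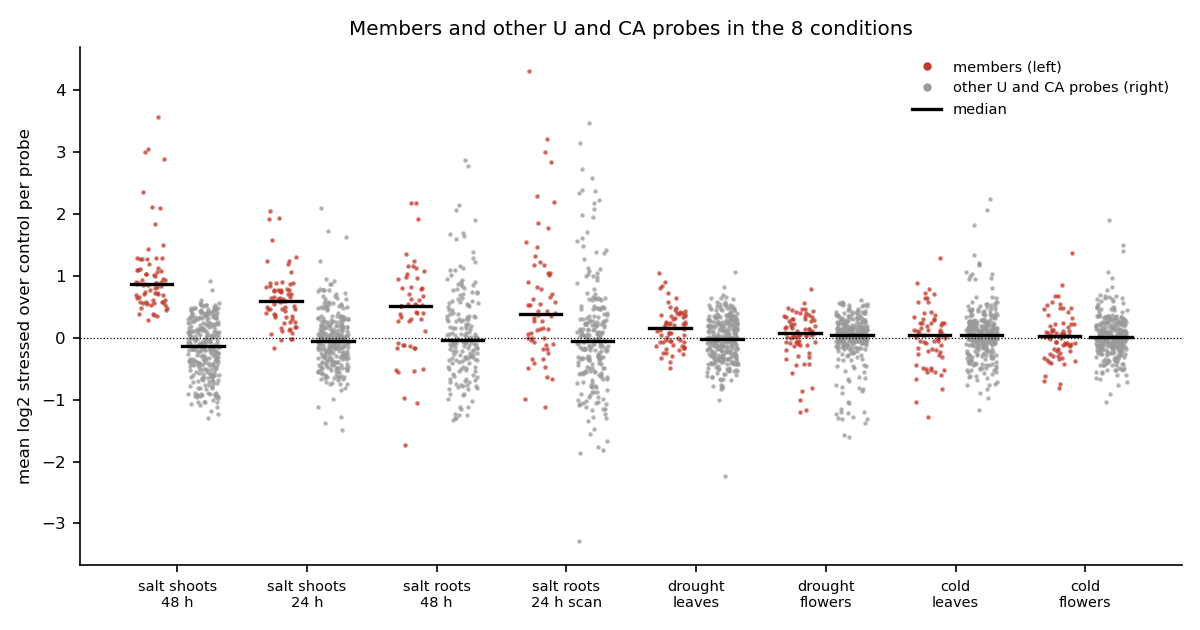
Mean log2 stressed over control per probe in each condition, for the members (red, left) and the other U and CA probes (grey, right), with medians as black lines and salt roots at 24 h as 1 scan. The members' medians lie above the others' in every condition, by definition at 48 h in shoots and as labelled in the scan of roots at 24 h. The gap is smaller in drought and cold than under salt, and members and others overlap in every condition.

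With limma's moderated test, 14 of the 66 members tested rose in salt shoots at 24 h (21.2%) and none fell, where 3.84% of all 391 probes tested rose and 4.09% fell (7.93% in either direction, adjusted p under 0.05, Benjamini-Hochberg over all probes tested). At an unadjusted p under 0.05 there were 33 members, all higher. The median fitted log2 ratio was 0.60 over the members tested and 0.03 over all probes tested. Only 15 probes of any kind rose, and the 1 that was no member, U455, had a ratio at 48 h on 1 array alone (2.87), too few to enter the list. Among the 34 members whose 48 h ratio was at least 1, 12 rose, and among the 32 under 1, 2 rose. Across members the 48 h ratio and the 24 h fitted ratio had a Pearson r of 0.641 (n = 66 probes that share the same slides and spotting, given as a description). With the fitted ratios of the other conditions this r was 0.45 in salt roots at 48 h, 0.329 in drought leaves and 0.321 in drought flowers. In cold leaves it was 0.0338 and in cold flowers 0.037.

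U278 had the highest fitted ratio at 24 h, 2.04 ± 0.20 (SE, limma adjusted p = 0.0101), from values of 1.69 and 2.40 on arrays 1 and 3. Those 2 values had an SD of 0.50, while the SE used the spread of the probe over all conditions tested. U098 followed, with 1.75, 0.68 and 3.33 on the 3 arrays and a fitted ratio of 1.91 ± 0.51 (adjusted p = 0.0350). The swapped array 3 was the highest for both. U096 had 0.97, 1.27 and 1.69 (fitted 1.39 ± 0.28, adjusted p = 0.0222), CA0761 had 1.33, 0.92 and 1.48 (fitted 1.22 ± 0.21, adjusted p = 0.0132), and U182 had 1.31, 1.34 and 1.05 (fitted 1.19 ± 0.20, adjusted p = 0.0101). These 3 were raised by a similar amount under both dye orientations.

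Next in size were U280 (fitted 1.11, from 0.29 to 1.79 on the arrays), CA0877 (0.96, from 0.05 to 2.07) and U283 (0.90, from 0.03 to 1.87). In all 3 array 2 was the lowest. The remaining calls, U411, U246, U020, U287, CA0962 and U061, had fitted ratios between 0.49 and 0.80, and the calls of CA0962 and U287 were lost under 9 and 7 of 12 alternatives. Among the 10 members highest at 48 h, those called at 24 h were U278, U098 and U280. Of the others, CA1126 had 2.11, 0.19 and 2.44 and CA0426 had 2.19, 0.45 and 3.19, and neither passed. CA0562, at -0.08 and 0.05 on arrays 2 and 3, was near 0 at 24 h and was at 1.84 ± 0.67 at 48 h (SD, n = 3).

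The calls at 24 h rested on few arrays. Without array 1, which was the only array quantified on day 4, or without array 3, no member passed with limma (22 and 21 at an unadjusted p under 0.05), and without array 2 there were 15. The methods' t-test on the 3 arrays gave 0 calls after adjustment (15 unadjusted). On 7 of the 58 members with all 3 arrays (12.1%), arrays 1 and 2 were above 0 and the swapped array 3 below, and on 3 (5.17%) the reverse held, against 21.1% and 20.7% of the other U and CA probes. U466, U493, U233, CA0702 and U184 were among the 7.

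After 48 h of salt the list divided in roots. Fewer members could be measured, 51 of 71, and 20 of these rose (39.2%) while 4 fell (7.84%). Salt roots at 48 h held many changes of any kind, with 23.8% of the 240 probes tested higher and 17.1% lower, so the share of members that fell was below the background and the share that rose above it. The median fitted ratio was 0.48 over the members and 0.01 over all probes tested. Of 26 members with a 48 h shoot ratio of at least 1, 15 rose and 1 fell, and of 25 under 1, 5 rose and 3 fell.

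U061 had the smallest p-value, with log2 ratios of 1.04, 1.17 and 1.84 on the 3 arrays of salt roots at 48 h and a fitted ratio of 1.38 ± 0.12 (SE, limma adjusted p = 1.48e-06). Its signals were 51132, 48370 and 36110 in stressed roots, against 1952, 13452 and 4851 in control roots. The stressed channel was brighter on every array, and the raw ratio of array 1, whose control channel was dim, was far above the normalised one. CA1126 had the highest fitted ratio, 2.18 ± 0.61 (adjusted p = 0.0139), from 2.77 and 1.59 on arrays 2 and 3. U371 had 1.78 and 2.58 on these arrays (fitted 2.18 ± 0.33, adjusted p = 0.000274), and CA0562 had 2.22 and 1.64 (fitted 1.93 ± 0.20, adjusted p = 5.98e-05). For CA0562 the control signal was above background on 1 of the 3 arrays only.

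U287 (fitted 1.24), CA0858 (1.19), U007 (1.16) and U034 (1.16) completed the 8 highest, each above 0 on every array with a value. U034 had 0.22, 1.49 and 1.37, with array 1 the lowest, and its call was lost under 8 of 12 alternatives. The other 12 that rose, which were U244, U182, U411, U206, U194, U097, U453, U246, U283, U336, U318 and U254, had fitted ratios from 0.49 to 1.12.

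U135 fell on every root array, with -2.41, -1.38 and -1.38 and a fitted ratio of -1.59 ± 0.20 (adjusted p = 6.97e-05). U399 had -0.41 and -1.71 on arrays 2 and 3 (fitted -1.06 ± 0.39, adjusted p = 0.0422), and CA0043 had -1.19 and -0.76 (fitted -0.97 ± 0.23, adjusted p = 0.00551). CA0185 had -0.25, -0.78 and -0.56 (fitted -0.58 ± 0.22, adjusted p = 0.0429). All 4 thus fell with salt in roots at 48 h. Their mean above 0 with salt in shoots at the same time follows from the choice of the members, so the contrast of organs at 48 h was not tested. The call of CA0185 in roots was lost under 8 of 12 alternatives and that of CA0043 under 3 of 10. Members with a value on 1 root array alone were not tested. Of these, U278 was at -2.29, CA0426 at 2.04 and CA0761 at 3.49, each on array 2.

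Array 1 of salt roots gave values for 26 members, against 55 and 56 for arrays 2 and 3. Without array 2 the list had 6 calls among 26 members that could still be tested, without array 3 it had 7 among 24, and without array 1 it had 17 among 49. The methods' t-test gave 0 calls after adjustment (4 unadjusted). For CA0878, U038 and U178 the stressed channel was above background on all 3 root arrays and the control channel on none. U038 and U178 had no unflagged ratio there. Their signals were therefore taken over all spots, flagged ones included, normalised within and between arrays. Control signals under the lowest signal above background were set to that level. The stressed mean was then 6.69-fold and 3.05-fold the control mean in salt roots at 48 h. For CA0878 the same calculation gave 5.95-fold, while its unflagged spots gave a log2 ratio of 0.53 on array 3. The values for U038 and U178 thus cannot be read as minimum folds. They carry no test, and 28 U and CA probes outside the list had the same pattern of channels.

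Between roots at 48 h and shoots at 24 h, which differ in organ and in time, 6 of 51 members rose in both (11.8%, against 2.95% of the 237 probes tested in both): U061, U182, U246, U283, U287 and U411. The sign was the same for 35 of the 51 (68.6%), against 57.8% of the 237 probes. The difference itself (roots 48 h minus shoots 24 h) passed for 7 members, 3 higher (5.88%) and 4 lower (7.84%). Of 237 probes, 10.1% were higher and 4.64% lower (14.8% in all), so members were called about as often as any probe. The 3 were U371 (2.15 ± 0.43, adjusted p = 0.00527), CA0562 (1.94 ± 0.28, adjusted p = 0.00112) and U061 (0.89 ± 0.17, adjusted p = 0.00292). U371 was near the control in shoots at 24 h, with -0.17, -0.25 and 0.35. Without array 2 or array 3 of the roots 3 members passed, among 26 and 24 tested.

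The 4 with the lower ratio in roots were U135 (-2.23 ± 0.28, adjusted p = 0.000112), U399 (-1.88 ± 0.50, adjusted p = 0.0215), CA0043 (-1.40 ± 0.30, adjusted p = 0.00718) and U020 (-0.65 ± 0.20, adjusted p = 0.0432). CA0043 was steady in its direction within each organ, at -1.19 and -0.76 in roots against 0.59, 0.46 and 0.36 in shoots at 24 h. U135 in shoots at 24 h had -0.25, 0.19 and 1.58, high on the dye-swapped array alone, and showed the same order in shoots at 48 h (0.02, 0.14 and 1.44). In roots it was below 0 on all 3 arrays, lowest on array 1. The dye term of the model takes up such a probe-specific offset only as far as it is common to all conditions.

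**Figure D3:**
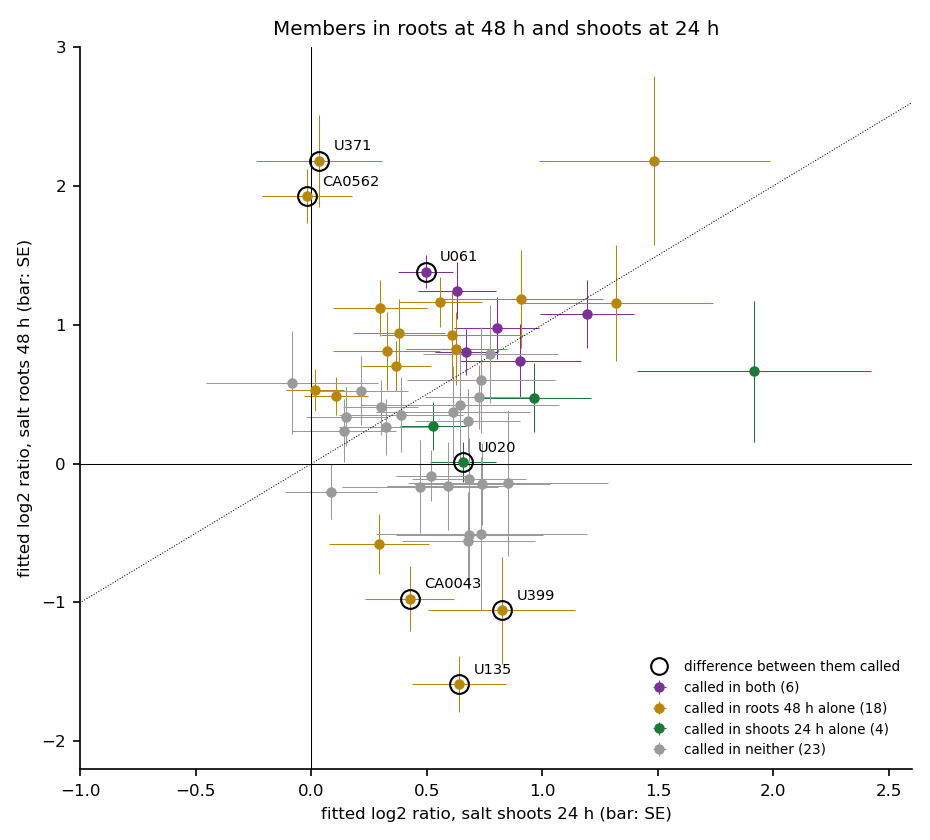
Fitted log2 ratio of the 51 members tested in both, in salt roots at 48 h (vertical) and salt shoots at 24 h (horizontal), with SE bars, a dotted line of equal values and colours for the calls. The 7 circled members passed the test of the difference, U371, CA0562 and U061 above the line and U020, CA0043, U399 and U135 below it.

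The single scan of salt roots at 24 h has no settled direction, and its values are given as its channels are labelled. There, 60 members had a value and 41 of these were above 0. A change of 2-fold or more upward was seen for 17 (28.3%, against 14.7% of 286 U and CA probes) and downward for 1 (1.67%, against 8.39%). With the channels turned, these are 17 lower and 1 higher, against 14.7% lower and 8.39% higher. U371 had the highest ratio there, 4.32, followed by U098 at 3.22, CA1126 at 3.01 and U244 at 2.84. U135 was the member more than 2-fold lower, at -1.11. U061 was at 1.02 and CA0562 at 1.22. With the channels turned, U371 would be the lowest at the same size and U135 the highest. The channel labelled stressed alone was above background for 5 members (U026, CA0878, CA1082, U096 and U178) and 54 other U and CA probes, and the channel labelled control alone for 2 members (U278 and U399) and 7 others.

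In unstressed plants members ranked higher in roots than in shoots more often than U and CA probes as a whole. The control channel places each probe by the rank of its signal among the 559 U and CA probes of an array, as a percentile that serves only to follow the same probe from array to array. Members had a median percentile of 65.5 in control roots at 48 h and 53.2 in control shoots at 24 h. On all 3 root arrays against all 3 shoot arrays the percentile was higher in roots for 34 of 71 members (47.9%, against 29.7% of all U and CA probes) and lower for 3 (4.23%, against 18.8%). The 62 probes lowered by salt in shoots at 48 h ran the other way, with 3 higher in roots (4.84%) and 33 lower (53.2%). These counts are a description, and the root control channels had fewer probes above background than those of the shoots at 24 h, 162 to 335 in roots, every one below the dimmest shoot channel. On all 3 root control arrays 26 members (36.6%) were above background, and on all 3 of the shoots 59 (83.1%). For the other U and CA probes the shares were 20.3% and 55.5%. The 559 probes include 156 without any ratio in salt shoots at 48 h, which could not be members.

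**Figure D4:**
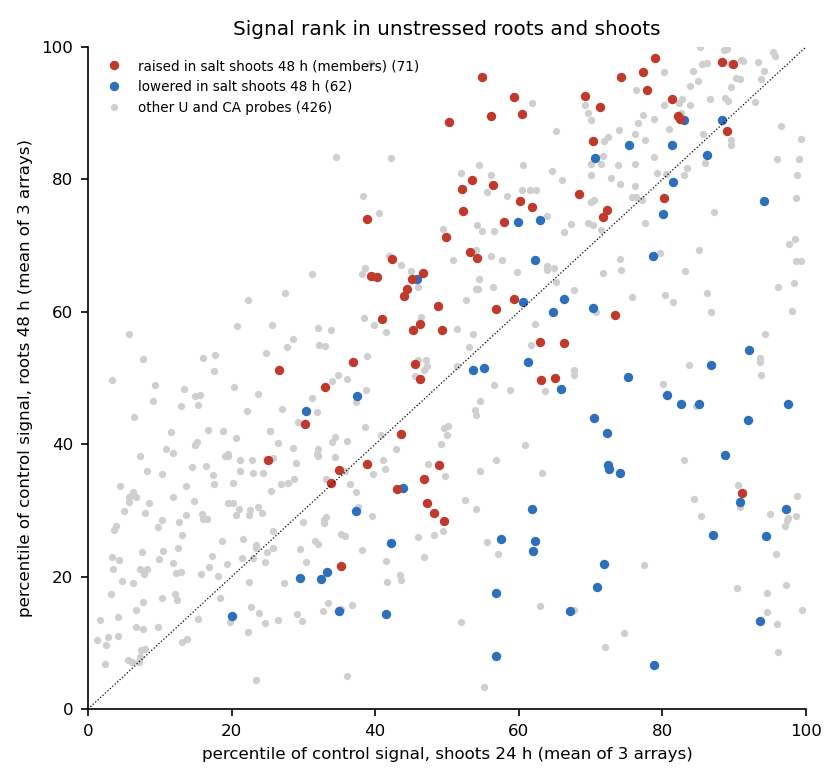
Percentile of the control-channel signal among 559 U and CA probes, as the mean of 3 arrays in unstressed roots at 48 h (vertical) and unstressed shoots at 24 h (horizontal), for the members (red), the probes lowered in salt shoots (blue) and the rest (grey). More red points lie above the dotted line of equal rank than below it, and more blue points below it than above.

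U034, at percentile 95.5 in control roots at 48 h and 54.9 in control shoots at 24 h, and U061, at 92.5 and 59.3, were among the members with the higher rank in roots. U135 was at 89.6 in roots and 56.2 in shoots. CA0426 was at 31.2 in roots and 47.2 in shoots, the opposite order. In the reproductive tissue of unstressed plants, the controls of drought gave 22 members (31%) with a higher percentile in flowers than in leaves on all arrays and 4 (5.63%) with a lower one, against 21.5% and 18.6% of all U and CA probes. The controls of cold gave 14 (19.7%) and 6 (8.45%), against 17.2% and 13.6%.

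Under drought no member passed the test. In leaves 65 members were tested and none called, as was none of the 428 probes (percent called 0 in both directions), and at an unadjusted p under 0.05 limma gave 6 members, all higher. The median fitted ratio was 0.15 over the members and -0.02 over all probes tested. Of the members, 24 of 65 (36.9%) were above 0 on every array, against 21.9% of U and CA probes. The smallest p-values belonged to U097, with 0.83, 0.19 and 1.47 (fitted 0.87 ± 0.22, limma adjusted p = 0.151), U096, with 0.30, 0.54 and 1.84 (0.98 ± 0.28, adjusted p = 0.182), and U197, with 0.29, 0.31 and 0.85 (0.50 ± 0.15, adjusted p = 0.182). The swapped array 3 was the highest for all 3. Without array 2 of drought leaves 1 member was called. U034 was at 0.15, 1.01 and 1.97 and did not pass.

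In drought flowers 70 members were tested and none passed, like none of the 431 probes (percent called 0), with 6 at an unadjusted p under 0.05, of which 5 were lower. The smallest p-values were those of CA0108, with -2.09, -0.23 and -0.69 (fitted -1.07 ± 0.29, adjusted p = 0.343), U184, with -2.59, -0.35 and -0.56 (-1.21 ± 0.43, adjusted p = 0.343), and U342, with -2.14, -0.20 and -0.24 (-0.89 ± 0.33, adjusted p = 0.343). In each of them array 1, on which 36 members had a value against 70 and 69 on the others, was far below the other 2. The fitted ratios of drought leaves and drought flowers had a Pearson r of 0.637 over 65 members and 0.298 over 357 U and CA probes, values of probes that share spotting and dye labelling. No member differed between drought leaves and drought flowers (0 of 65 tested, 1 at an unadjusted p under 0.05, percent called 0 among 389 probes).

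Cold moved members in no common direction. In cold leaves 64 members were tested, none rose and 2 fell (3.12%), where 2.15% of 419 probes rose and 1.19% fell (3.34% in all). Of the 65 members with values on 2 or more cold leaf arrays, 12 were above 0 on every array (18.5%), against 23.3% of U and CA probes. CA0761 had -1.57, -0.50 and -1.03 in cold leaves (fitted -1.05 ± 0.21, limma adjusted p = 0.0336), and U096 had -1.90, -0.45 and -1.48 (-1.20 ± 0.28, adjusted p = 0.0409). Both had risen with salt in shoots at 24 h, on 3 of 3 arrays, and fell with cold on 3 of 3. The difference between salt shoots and cold leaves was not tested, as the plants differed in age and culture. Neither cold leaf call was made without array 1 of cold leaves, and without array 3 the list had 1 call, which was higher. The cold leaf call was lost under 6 of 12 alternatives for U096 and under 4 of 12 for CA0761. Their calls in salt shoots at 24 h were each lost under 4 of 12.

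The members were uneven across the cold leaf arrays. Their median was 0.03, 0.32 and -0.41 on arrays 1, 2 and 3, against 0.00, 0.00 and 0.04 for the other U and CA probes, and 46 of 70 were above 0 on array 2 against 15 of 53 on the swapped array 3. Arrays 1 and 2 above 0 with array 3 below was the pattern of 17 of 48 members with all 3 arrays (35.4%), against 11.5% of the other U and CA probes. The part of the dye orientation in this was not tested, and it cannot be told apart from array 3 itself. U399 was at 1.65, 1.43 and 0.81 in cold leaves and at 1.28, 0.91 and 0.38 in cold flowers, above 0 on all 6 arrays, and did not pass in either.

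In cold flowers 68 members were tested and none passed, like none of the 423 probes (percent called 0), with 10 at an unadjusted p under 0.05. U059 came nearest, with 1.19, 1.51 and 1.39 on the 3 arrays (fitted 1.44 ± 0.37, adjusted p = 0.132). Both dye orientations gave similar values there, while in salt shoots at 24 h it had -1.22, -0.65 and 1.40, with the sign turned on the swapped array. CA0878 had -1.23 and -0.39 on arrays 1 and 2 (fitted -0.84 ± 0.27, adjusted p = 0.228), and U280 had 1.04, 0.38 and 0.60 (0.72 ± 0.26, adjusted p = 0.276). No member differed between cold leaves and cold flowers (0 of 64 tested, 6 at an unadjusted p under 0.05, percent called 0 among 388 probes). U020, U135 and U025 had the smallest p-values there, with differences of 0.56 ± 0.20, -0.73 ± 0.28 and 0.77 ± 0.29 (adjusted p = 0.869 for each).

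Between the 2 stresses in leaves, U096 was the member that differed. Its ratio was 2.17 ± 0.39 higher in drought leaves than in cold leaves (limma adjusted p = 0.0142), where 0.993% of 403 probes were higher and as many lower (1.99% in all), and 63 members were tested. U096 was above 0 on 3 of 3 drought arrays and below 0 on 3 of 3 cold arrays, so its arrays did not overlap. Without array 3 of drought leaves no member passed (limma, 7 at an unadjusted p under 0.05), and without array 2 of cold leaves 2 did.

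**Figure D5:**
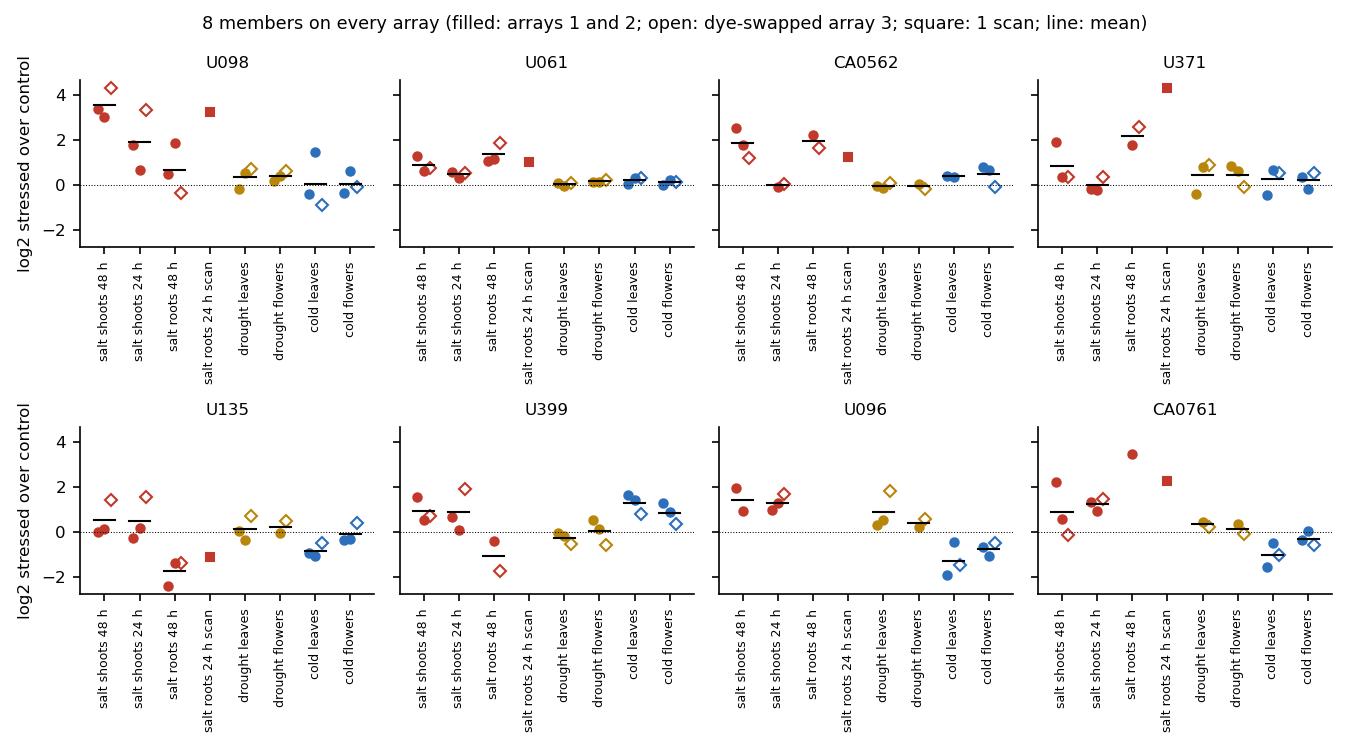
Log2 stressed over control of 8 members on every array of the 8 conditions, with filled circles for arrays 1 and 2, open diamonds for the dye-swapped array 3, a square for the single scan of salt roots at 24 h and lines for means. CA0562 and U371 are near 0 in salt shoots at 24 h and high in salt roots, U135 is below 0 in salt roots, and U096 and CA0761 are above 0 in salt shoots and below 0 in cold leaves.

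Across the 6 conditions tested, 39 members were called in none (54.9%), 24 in 1 (33.8%) and 8 in 2 (11.3%), and none in 3 or more. Of the 474 probes tested in at least 1 condition, 73.6% were called in none, 22.6% in 1, 3.8% in 2 and 0% in 3 or more. The 8 were the 6 that rose in both salt shoots at 24 h and salt roots at 48 h, and U096 and CA0761, which rose in salt shoots at 24 h and fell in cold leaves. All calls in which a member rose were under salt, where most calls of any probe were made. Among all probes tested, 15 rose in salt shoots at 24 h, 57 in salt roots at 48 h and 9 in cold leaves. In drought leaves, drought flowers and cold flowers 0 rose. Of the 71, 49 could be tested in all 6 conditions.

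In the authors' deposited table of log2 values, whose centring is not stated and whose columns have medians between -0.335 and 0.0002, 56 of 71 members were above 0 in salt shoots at 48 h, against 38.2% of U and CA probes. That count largely follows from the choice, since the table averages the same replicates, and it is a description only. The authors' deposited table had 47 of 71 above 0 in salt shoots at 24 h (against 35%), 36 of 57 in salt roots at 48 h (against 40.6%) and 29 of 59 in salt roots at 24 h (against 34.2%). In the authors' deposited table the members' counts under drought were 37 of 69 in leaves (against 40.5%) and 39 of 70 in flowers (against 50.6%), and under cold 26 of 70 (against 39.6%) and 27 of 70 (against 35.5%).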

How the data were processed

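Each of the 24 arrays has a file per channel. These deposited files hold, per the file headers, intensity measured in ImaGene 5.5 as the mean over a spot's pixels and over its local background. The deposited log2 values are means over 3 biological replicates per the labels, made by the authors in GeneSight 3 after background subtraction and LOWESS, per the series design. Members and lists were chosen with earlier results of these data known. Background was corrected by normexp (offset 50), arrays were normalised by loess, spots flagged in either channel were dropped, and ratios were turned to stressed over control. limma 3.58.1 (R 4.3.3) fitted 18 arrays with a coefficient per condition, a dye term and 1 estimate of the spread per probe shared by all conditions. Salt shoots at 48 h was left out because it chose the members, and salt roots at 24 h because it is 1 scan. Probes needed values on 2 arrays, and calls were made at 0.05 after Benjamini-Hochberg adjustment across every probe tested in a comparison. The model was tested on simulated data. Named members were the 10 highest at 48 h, 3 on each side of the threshold, and per comparison up to 8 called higher and 5 lower, or the 3 smallest p-values where none was called. Probes outside this rule (such as U455, U059 in salt shoots, and those listed by code) were named after their values were seen. The number of arrays limits precision. Alternatives changed the background correction, normalisation, flags, dye term, arrays fitted, weights, day block and test.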

Additional observations from a re-analysis of the deposited data

Results flagged for a closer look

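The test of a difference between 2 conditions singled out 8 results. In salt roots at 48 h minus salt shoots at 24 h these were CA0562 (1.94), U371 (2.15), U061 (0.89), U020 (-0.65), CA0043 (-1.40), U399 (-1.88) and U135 (-2.23), with limma on log2 ratios, and in drought leaves minus cold leaves U096 (2.17). Organ and time both differ in the first comparison. There 5.88% of the 51 members tested were higher and 7.84% lower, against 10.1% and 4.64% of 237 probes (14.8% in all). In drought minus cold leaves 1.59% of 63 members were higher, against 0.993% of 403 probes. Members were thus called about as often as any probe. CA0562, U371, U061, U399 and U135 passed under every alternative in which they could be tested, with the highest adjusted p at 0.0342. CA0043 did not pass under 2 of 13 alternatives, U020 under 12 of 15 and U096 under 3 of 15.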

How the results depend on the processing

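In salt shoots at 24 h the 14 calls became 6 without the dye term, 9 with 21 arrays, 28 with array quality weights (a fit that stopped before convergence) and 0 by the methods' t-test. In salt roots at 48 h the 24 calls became 14 with at least 3 unflagged spots and 0 by that t-test. Array weights gave 1 call in drought leaves and 1 in cold flowers. Cold leaves had 1 call with at least 3 unflagged spots and 1 with the first day of quantification as a block. The t-test gave 1 call there, that of U182, whose 2 values of -0.53 were almost equal (SD 2.5e-06). It called neither CA0761 nor U096. The difference of roots and shoots had 13 calls where only spots flagged in both channels were dropped and 14 with array weights. Drought minus cold leaves had 3 calls with the background and centring of the rule, 4 with median centring, 2 with spots dropped where both channels were flagged, 0 without the dye term (10 at an unadjusted p under 0.05), 5 with array weights and 2 with the day block. With the replicate block, array numbers in place of the dye term, the 4 differences had 6, 1, 0 and 0 calls. The numbers share the dye orientation and nothing says that they pair plants, so the block is reported here only.

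Leaving out each array in turn gave 0 to 15 calls in salt shoots at 24 h, 6 to 17 in salt roots at 48 h, 0 to 1 in drought leaves, 0 to 0 in drought flowers, 0 to 2 in cold leaves and 0 to 0 in cold flowers. It gave 3 to 9 for roots minus shoots, 0 to 2 for drought minus cold leaves, and 0 to 0 for both differences of leaves and flowers. In the authors' deposited table, taken as it stands, the members' median was 0.28 in salt shoots at 24 h, against -0.23 for the U and CA probes. It was -0.10 in salt roots at 24 h (against -0.34), -0.16 in cold leaves (against -0.09) and -0.10 in cold flowers (against -0.09). In salt roots at 24 h the members' median was 0.36 with the rule's processing and 0.34 with median centring, both of which centre each array. The cause of these changes was not tested. For called members, 550 repeats of a call were made. The call was kept in 395, lost with the direction unchanged in 155, and reversed in 0. In salt roots at 48 h, 20 members lacked unflagged ratios on 2 arrays and were not tested.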
